A study of Mus musculus with 12 samples.

Results

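A set of 10 transcription factors that mark the embryonic and adult hypothalamus were followed here across hypothalamus and skeletal muscle: Nkx2-1, Sim1, Otp, Six3, Six6, Rax, Nr5a1, Isl1, Lmx1a and Foxb1. All probes that the platform annotation assigns to one of these symbols, or to an older name of it, were taken. Of the 10 genes, 9 had a probe, 1 each, so that 9 of 33012 probes are described. Nr5a1, the steroidogenic factor of the ventromedial nucleus, was not matched to a probe and was not analysed here. The values come from 12 one-colour chemiluminescent arrays in 4 groups of 3: skeletal muscle and hypothalamus of male mice homozygous for the congenic segment (strain B6.CAST-17, which carries CAST DNA of chromosome 17 on a B6 background), and the same tissues of male wild type B6 mice. The titles of the hypothalamus samples call these congenics short, and those of the muscle samples do not. Ages, the ends of the segment and whether equal numbers mark the same mouse are not stated in the labels.

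The hypothalamus is patterned by a small set of homeodomain, bHLH-PAS, forkhead and nuclear receptor proteins. Rax, Six3 and Six6 act early, in the anterior neural plate and the forming eye and hypothalamus, and Rax stays on in tanycytes. Nkx2-1 sets ventral and tuberal identity, Sim1 and Otp are needed for the oxytocin, vasopressin, TRH and CRH neurons of the paraventricular and supraoptic nuclei, and Isl1 for arcuate neurons such as the POMC neurons. Foxb1 and Lmx1a mark the mammillary and supramammillary region at the caudal end. Whole dissected tissue was measured, so fewer cells of a type and less RNA per cell cannot be told apart.

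Values are deposited log2 intensities (base 2 inferred from the range of 5.35 to 21.13), in which 1 unit is a doubling. Each tissue was scaled on its own, with a median of 9.12 on every muscle array and 8.98 on every hypothalamus array, so the percentile of the probe among all 33012 probes of its array is given beside the levels. A percentile ranks the brightness of a probe and not the abundance of a transcript, and the members were not ranked against each other. No detection calls were available. As a scale for low values, the 21 measured hypothalamic neuropeptide and nucleus marker genes lay between 7.05 and 11.90 on the muscle arrays, and the 9 measured muscle structural genes between 6.91 and 13.92 on the hypothalamus arrays.

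The RefSeq promoters (assembly GRCm38.p6) of the 3 members that were higher in hypothalamus, and of Six3, which lies on the chromosome that differs between the strains, are shown as context for those genes. Each is the 250 bases before the annotated start, 5′ to 3′ in the direction of the gene, and the capitals mark CCAAT on either strand (ATTGG on the other strand), a common promoter element.
Isl1, chr13:116309689-116309938, minus strand: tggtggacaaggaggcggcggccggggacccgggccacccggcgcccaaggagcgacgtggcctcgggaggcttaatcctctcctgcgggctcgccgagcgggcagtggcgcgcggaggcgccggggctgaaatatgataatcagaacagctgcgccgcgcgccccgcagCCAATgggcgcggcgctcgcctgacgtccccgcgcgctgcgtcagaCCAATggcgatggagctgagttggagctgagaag
Sim1, chr10:50895401-50895650, plus strand: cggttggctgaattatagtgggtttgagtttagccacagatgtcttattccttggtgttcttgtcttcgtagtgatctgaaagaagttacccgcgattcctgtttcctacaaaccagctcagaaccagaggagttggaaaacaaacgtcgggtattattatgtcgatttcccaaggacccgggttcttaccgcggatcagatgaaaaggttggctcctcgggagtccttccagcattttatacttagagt
Six6, chr12:72939632-72939881, plus strand: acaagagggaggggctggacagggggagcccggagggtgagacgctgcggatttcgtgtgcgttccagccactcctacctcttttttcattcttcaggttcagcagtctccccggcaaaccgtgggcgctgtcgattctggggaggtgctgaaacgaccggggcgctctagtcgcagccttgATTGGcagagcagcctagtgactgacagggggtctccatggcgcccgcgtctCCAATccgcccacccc
Six3, chr17:85620584-85620833, plus strand: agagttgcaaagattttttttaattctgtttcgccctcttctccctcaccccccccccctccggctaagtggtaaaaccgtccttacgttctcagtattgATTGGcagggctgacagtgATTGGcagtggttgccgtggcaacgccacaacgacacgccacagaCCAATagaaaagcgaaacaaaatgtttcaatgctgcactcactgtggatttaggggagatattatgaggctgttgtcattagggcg
The CCAAT box occurred 2 times in the Isl1 promoter, 2 times in Six6, 3 times in Six3 and was not in the Sim1 window. On either strand it stood in 33.8% of all 32851 promoters of this length. The Sim1 window held TATAAA only on the other strand, where the printed strand reads tttata, 1 time, 14 bases before the start (12.4% of promoters hold one on either strand), and the Isl1 window 1 CAGCTG, an E box (13.0%). TAATTA, a core that many homeodomain proteins bind, was in none of the 4 windows and in 4.84% of all promoters. The Isl1 window was rich in CG dinucleotides, with 33 of them and 71.2% G or C, against a median over all promoters of 6 and 52.4%. Six6 had 17 and 62.8%, Sim1 11 and 45.6%, and Six3 10 and 48.8%. The paralogs Six3 and Six6 shared a run of 11 bases, ttgattggcag, that includes a CCAAT box on the other strand and is found in 11 promoters (0.0335% of all), while the other pairs shared runs of 8 to 9 bases. These matches describe letters only.

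Isl1, Sim1 and Six6 were higher in hypothalamus than in muscle, Otp was lower, and Six3, Rax, Nkx2-1, Foxb1 and Lmx1a did not pass the test. Tissues were compared with limma over the 12 arrays, with Benjamini-Hochberg adjustment over all 33012 probes and a threshold of 0.05. Thus 3 of 9 members passed as higher and 1 of 9 as lower, where 11% and 18.5% of all probes did. Leaving out array 1 of the wild type hypothalamus, which correlated poorly with the other 5, the counts were 3 of 9 higher and 2 of 9 lower, beside 15.7% and 24.8% of all probes. The median difference was 0.16 over the members and -0.17 over all probes. In 2 of 9 members, Isl1 and Sim1, every hypothalamus array lay above every muscle array, which held for 6.91% of all probes. The same 2 met this without wild type array 1, against 11.8% of probes. In 0 of 9 members did every hypothalamus array lie below every muscle array, against 13.3% of probes.

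**Figure D1:**
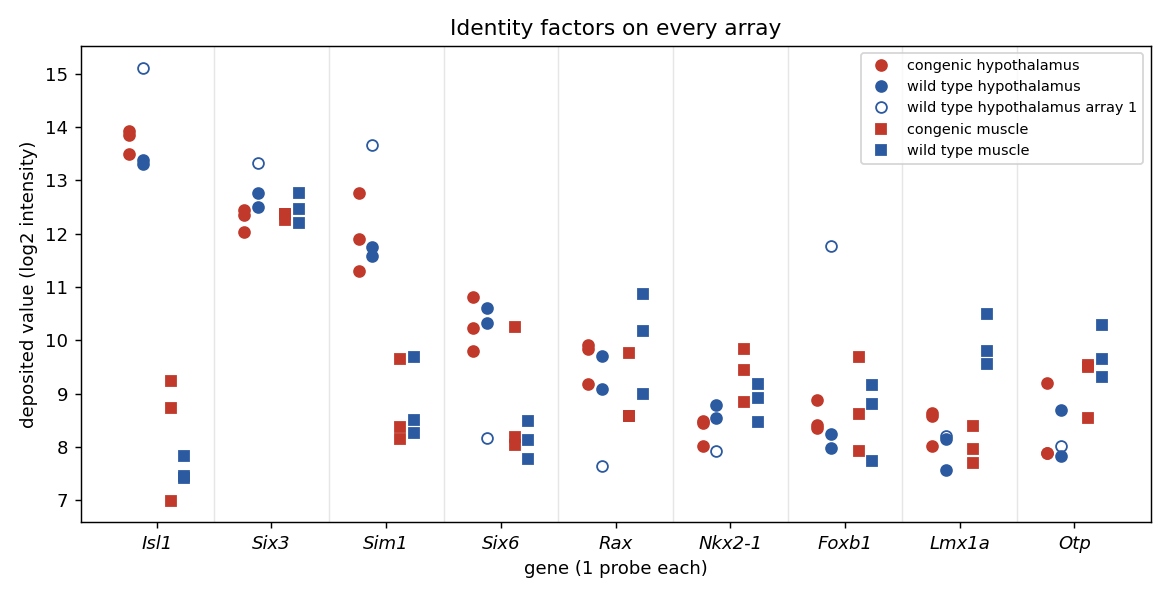
Deposited log2 intensity (vertical axis) of the 9 measured genes (horizontal axis, 1 probe each) on each of the 12 arrays, with circles for hypothalamus, squares for muscle, red for congenic, blue for wild type and an open circle for wild type hypothalamus array 1. Isl1 and Sim1 separate the tissues on every array, Six3 sits between 12.03 and 13.32 in both, and the open circle is the highest hypothalamus value for Isl1, Six3, Sim1 and Foxb1.

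Among the early eye and forebrain factors, Six6 (probe 556635) encodes a sine oculis type homeodomain protein needed for the suprachiasmatic nucleus and for GnRH neurons. It read 10.82, 10.23 and 9.80 on congenic hypothalamus arrays 1 to 3 and 8.17, 10.32 and 10.60 on wild type arrays 1 to 3. In muscle it read 8.04, 10.25 and 8.19 in the congenics and 8.13, 8.48 and 7.78 in wild type. Wild type hypothalamus array 1 fell within the muscle values, and congenic muscle array 2 within the hypothalamus values, so the tissues overlapped through 1 array on each side. Its median percentile was 66.1 (30.5 to 71.0) in hypothalamus and 25.1 (11.8 to 64.7) in muscle. Six6 was higher in hypothalamus by 1.51 ± 0.51 (SE, adjusted p = 0.04 by limma), against low muscle values, so no fold is given. This call lay near the threshold and depended on most single arrays. It held without congenic muscle array 2 (1.87, adjusted p = 0.012), congenic hypothalamus array 3 (1.63, 0.049) or wild type hypothalamus array 1 (1.89, 0.00201), and was lost without any one of the other 9, where the difference was 1.29 to 1.6 and the adjusted p 0.0573 to 0.101.

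Six3 (probe 734492), the paralog of Six6 that represses Wnt signalling in the anterior neural plate, gave like values in both tissues. It read 12.44, 12.36 and 12.03 in congenic and 13.32, 12.76 and 12.50 in wild type hypothalamus, and 12.37, 12.37 and 12.26 in congenic and 12.76, 12.47 and 12.20 in wild type muscle. The muscle values lay inside the range of the hypothalamus values. The probe stood at a median percentile of 83.7 in hypothalamus and 81.8 in muscle, and the difference of 0.16 ± 0.28 (SE) did not pass (adjusted p = 0.72). Of the other measured genes of this family and its EYA and DACH cofactors, Six2 marked muscle, at 15.21 to 15.69 there and 8.08 to 9.74 in hypothalamus (difference -6.79, adjusted p = 8.75e-09). Of the 8 measured genes of that list, Six3 and Six6 included, 1 passed as higher in hypothalamus, 1 as lower and 6 did not pass. Of all probes 11% passed as higher and 18.5% as lower.

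Rax (probe 341709), the retina and anterior neural fold homeobox gene that adult tanycytes keep expressing, read 9.83, 9.91 and 9.17 in congenic hypothalamus and 7.64, 9.08 and 9.70 in wild type. The muscle values were 9.77, 8.58 and 8.58 in the congenics and 9.0, 10.86 and 10.17 in wild type. The tissues overlapped, though wild type hypothalamus array 1 lay below every muscle array. Wild type muscle arrays 2 and 3 lay above every hypothalamus array. The difference was -0.27 ± 0.46 (SE, adjusted p = 0.716 by limma). Without wild type hypothalamus array 1, where Rax was lowest, the difference was 0.02 ± 0.39 (adjusted p = 0.975).

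Of the regional selectors, Nkx2-1 (probe 482163) was not brighter in hypothalamus than in muscle. It read 8.49, 8.02 and 8.45 in congenic and 7.92, 8.79 and 8.54 in wild type hypothalamus, and 8.84, 9.45 and 9.83 in congenic and 8.46, 9.18 and 8.91 in wild type muscle. All hypothalamus values lay under the array median of 8.98. The difference was -0.74 ± 0.31 (SE, adjusted p = 0.097), and -0.62 ± 0.32 without wild type hypothalamus array 1 (adjusted p = 0.142).

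Sim1 (probe 484821), the bHLH-PAS factor of the paraventricular and supraoptic nuclei whose loss of one copy causes obesity in mice, separated the tissues. It read 11.31, 12.76 and 11.91 in congenic hypothalamus and 13.66, 11.75 and 11.58 in wild type. In muscle it read 8.38, 9.65 and 8.15 in the congenics and 8.25, 9.68 and 8.51 in wild type. The lowest hypothalamus array lay above the highest muscle array, at percentiles of 74.9 and 58.2. The difference was 3.39 ± 0.48 (SE, adjusted p = 0.000113 by limma), against muscle values that cannot be told from background, so no fold is given. It stayed between 3.06 and 3.62 when each of the 12 arrays was left out, and passed each time.

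Otp (probe 357312), the homeodomain partner of Sim1 in the same neurons, did not follow it. It read 7.88, 7.89 and 9.20 in congenic and 8.02, 8.70 and 7.83 in wild type hypothalamus, and 9.53, 8.54 and 9.49 in congenic and 9.64, 9.31 and 10.29 in wild type muscle. The hypothalamus arrays were the lower ones, overlapping muscle only through congenic hypothalamus array 3 and wild type hypothalamus array 2, which lay above congenic muscle array 2. Otp was lower in hypothalamus by -1.21 ± 0.37 (log2, SE; adjusted p = 0.024). This is a difference of intensities of a dim probe, at a median percentile of 23.1 in hypothalamus and 56.0 in muscle, and neither level can be told from background here. The call was lost, with differences of -1.14 to -1.08 and adjusted p of 0.0551 to 0.0632, without congenic muscle array 1 or 3, wild type muscle array 3, congenic hypothalamus array 1 or 2, or wild type hypothalamus array 3. Among the 17621 probes with a mean of 8 to 10 over the 12 arrays, the range in which Otp lies, 10.9% passed as lower in hypothalamus and 7.93% as higher.

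Isl1 (probe 333751), the LIM homeodomain factor of arcuate and other ventral neurons, had the largest tissue difference of the 9. It read 13.93, 13.85 and 13.50 in congenic and 15.12, 13.38 and 13.31 in wild type hypothalamus. In muscle it read 8.72, 9.23 and 6.99 in the congenics and 7.82, 7.41 and 7.45 in wild type. The groups of the 2 tissues lay more than 4 units apart at their nearest arrays. Its percentile was 89.0 to 95.7 in hypothalamus and 0.7 to 51.9 in muscle. The difference was 5.91 ± 0.45 (SE, adjusted p = 3.27e-07 by limma), and stayed between 5.58 and 6.14 when each of the 12 arrays was left out. The muscle values cannot be told from background, so no fold is given; with values floored at the 20th percentile of each tissue the difference was 5.51. Of the 12 measured LIM homeodomain and LDB cofactor genes, members included, 3 passed as higher in hypothalamus, namely Isl1, Lhx5 (4.17) and the cofactor Ldb2 (2.81). Lhx3 passed as lower (-1.23), and 8 did not pass, where 11% of all probes passed as higher and 18.5% as lower. Without wild type hypothalamus array 1, 5 of the 12 genes passed as higher and 3 as lower, beside 15.7% and 24.8% of all probes. The other 4 did not pass. Lhx2 (2.14) and Ldb1 (1.31) were now among the higher genes and Isl2 (-0.99) and Lmx1a (-0.85) among the lower.

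At the caudal end, Foxb1 (probe 437090), a forkhead factor of the mammillary body, read 8.41, 8.88 and 8.35 in congenic hypothalamus and 11.77, 8.24 and 7.98 in wild type. The muscle values were 8.62, 9.68 and 7.92 in the congenics and 8.81, 7.73 and 9.16 in wild type. Wild type hypothalamus array 1 alone lay above all muscle arrays, at percentile 78.5, while the other 5 were at 24.0 to 48.4. The difference was 0.28 ± 0.61 (SE, adjusted p = 0.78), and -0.33 ± 0.39 without that array (adjusted p = 0.548), so that its sign turned.

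Lmx1a (probe 529296), a LIM homeodomain factor of the supramammillary region and of midbrain dopamine neurons, read 8.57, 8.01 and 8.63 in congenic and 8.20, 7.56 and 8.14 in wild type hypothalamus. The muscle values were 7.69, 8.39 and 7.95 in the congenics and 9.79, 10.49 and 9.55 in wild type. Hypothalamus overlapped with congenic muscle and lay below all wild type muscle arrays. The difference was -0.79 ± 0.30 (SE, adjusted p = 0.0674), and -0.85 ± 0.32 without wild type hypothalamus array 1, which passed (adjusted p = 0.0482).

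**Figure D2:**
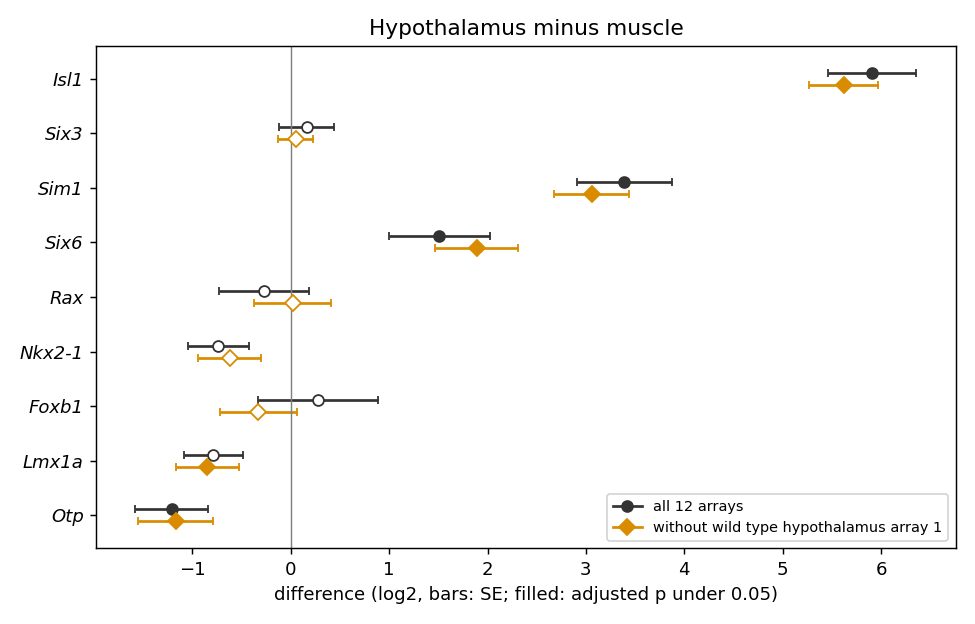
Hypothalamus minus muscle difference in log2 intensity (horizontal axis) of each gene (vertical axis), with all 12 arrays in black and without wild type hypothalamus array 1 in orange; bars are standard errors and filled symbols have an adjusted p under 0.05 by limma. Isl1, Sim1 and Six6 lie to the right of 0 in both fits, Otp to the left, and Lmx1a is filled only in the fit without that array (-0.85).

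Other genes known from the hypothalamus were read in the same fit, from lists chosen with earlier results of these data known. In that fit 11% of all probes passed as higher and 18.5% as lower, and 15.7% and 24.8% without wild type hypothalamus array 1. Of 36 measured further transcription factors of the hypothalamus, 16 passed as higher, 3 as lower and 17 did not pass, with a median difference of 1.06 beside -0.17 over all probes. Without wild type hypothalamus array 1 the counts were 17, 4 and 15, with medians of 0.98 and -0.23. Of the 4 with the highest hypothalamus mean, Hes5, a Notch target of neural progenitors and glia, was 13.18 to 14.71 in hypothalamus and 7.64 to 8.26 in muscle (difference 5.96, adjusted p = 1.48e-08). Arnt2, the dimer partner of Sim1, was 15.82 to 18.19 in hypothalamus and 11.15 to 11.73 in muscle (5.58, adjusted p = 2.6e-07). Sox2 was higher by 5.61 (adjusted p = 6.39e-07), and Zfhx3, a factor of the suprachiasmatic nucleus, differed by -0.15 (adjusted p = 0.744).

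The 21 measured neuropeptide and nucleus marker genes gave 15 higher, 2 lower and 4 not passed, with a median difference of 4.90, and 16, 2 and 3 without wild type hypothalamus array 1 (median 4.59). Oxt, the oxytocin gene of the nuclei that need Sim1 and Otp, was 17.43 to 19.22 in hypothalamus and 10.60 to 11.39 in muscle (7.22, adjusted p = 4.15e-09). Avp, vasopressin, was 15.72 to 17.95 in hypothalamus and 7.91 to 10.48 in muscle (7.55, adjusted p = 2.51e-08). Sst, somatostatin, was higher by 9.11 and Hcrt, the orexin gene of the lateral hypothalamus, by 7.22 (8.77 without wild type hypothalamus array 1), and every hypothalamus array of Oxt, Avp and Sst lay above every muscle array.

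Factors of neighbouring regions were counted for comparison, beside the 11% of all probes that passed as higher and the 18.5% that passed as lower. The lists share some genes. Zic1, Lhx9 and Foxp2 of the thalamic list were also among the further hypothalamic factors. Pitx3, Pax3 and Pax7 were in both the midbrain and hindbrain list and the list of muscle transcription factors. Of 11 measured telencephalic factors 5 passed as higher and 0 as lower (median difference 1.10); Lmo3 was higher by 3.36, Bcl11b by 3.05, Cux2 by 2.09 and Tbr1 by 2.16. Of 9 thalamic factors 2 passed as higher, Zic1 (3.36) and Nr4a2 (2.01), and 1 as lower, Rora (-2.19), with a median of 0.03; Etv1 differed by 1.56 (adjusted p = 0.115). Of 18 midbrain and hindbrain factors 0 passed as higher and 6 as lower (median -0.77), among them Hoxc4 (-3.63), Hoxb3 (-2.12) and Pitx3 (-1.95), which were bright in muscle, while Hoxa3 differed by -0.39 (adjusted p = 0.516). On the muscle side, 7 of 14 measured muscle transcription factors passed as lower in hypothalamus and 0 as higher (median -1.65), with Myf6 at 15.48 to 16.10 in muscle and 7.24 to 8.31 in hypothalamus. All 9 measured muscle structural genes passed as lower (median -10.95), with 16.83 as their lowest value on a muscle array and 13.92 as their highest on a hypothalamus array.

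Without wild type hypothalamus array 1 the telencephalic counts stayed at 5 higher and 0 lower and all 9 muscle structural genes again passed as lower. The thalamic factors then gave 3 higher and 2 lower, the midbrain and hindbrain factors 0 and 8, and the muscle transcription factors 0 and 9. Of all probes 15.7% then passed as higher and 24.8% as lower.

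**Figure D3:**
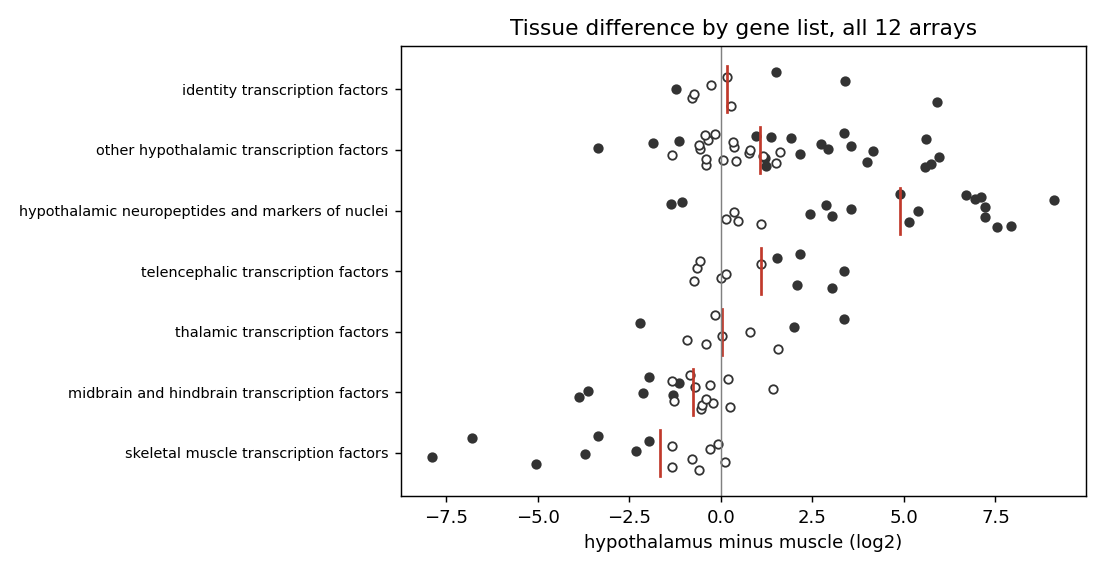
Hypothalamus minus muscle difference in log2 intensity (horizontal axis) for each measured gene of 7 lists (vertical axis), 1 point a gene, filled where the adjusted p by limma is under 0.05, with a red line at the list's median. The medians run from -1.65 for muscle transcription factors through 0.16 for the 9 identity factors to 4.90 for the neuropeptides and nucleus markers.

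As a check of dissection, each hypothalamus array was set against the median of the other 5. On the 5 arrays other than wild type array 1, Isl1 lay between 13.31 and 13.93, Sim1 between 11.31 and 12.76, Six3 between 12.03 and 12.76, Six6 between 9.80 and 10.82 and Rax between 9.08 and 9.91. Their SDs over those 5 arrays were 0.28, 0.55, 0.26, 0.39 and 0.39. Six3 and Rax did not differ between the tissues by the test, so their even values carry no information on what was dissected. Wild type array 1 was the highest of the 6 for 4 of 9 members (Isl1, Six3, Sim1 and Foxb1) and the lowest for 3 of 9 (Six6, Rax and Nkx2-1). Over all probes it was the highest for 38.1% and the lowest for 28%, so the members' shares have that background.

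The deviations of that array from the median of the other 5 were 3.42 for Foxb1, 1.91 for Sim1, 1.62 for Isl1 and 0.87 for Six3 on the high side. They were -2.15 for Six6, -2.06 for Rax and -0.57 for Nkx2-1 on the low side, and 0.12 for Otp and 0.06 for Lmx1a. The middle 90% of all probes on the array spanned -4.23 to 3.07, so Foxb1 alone of the 9 lay outside it. Over all probes the array had Spearman correlations of 0.420 to 0.461 with the other 5, which had 0.775 to 0.853 among themselves.

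Markers moved on that array too, in both directions. Of the 21 neuropeptide and nucleus markers, it was the lowest of the 6 arrays for 9 and the highest for 5, beside 28% and 38.1% of all probes. Oxt, at 18.69, Avp, at 16.87, and Sst, at 19.00, were as bright there as on the other hypothalamus arrays. Hcrt read 9.06 against 16.30 to 19.10 on the other 5, and 8.58 to 9.20 in muscle. Tac1 read 9.47 there against 15.21 to 15.85 on the other 5, while Vip read 14.36 against 11.94 to 12.80. Of the neuronal markers, Stmn2 was 17.80 there and 17.49 to 18.44 on the others, while Eno2, the neuronal enolase, was 9.08 against 16.45 to 18.73. The median of the 11 neuronal markers was 12.23 on it, 15.74 to 16.99 on the other 5 and 8.17 to 8.77 in muscle. The log2 of the summed intensity of the 7 measured oligodendrocyte markers was 10.99 on it, 13.23 to 17.54 on the other 5 and 12.20 to 12.76 in muscle. That of the 6 choroid plexus, blood and vessel markers was 11.96 on it, 14.67 to 17.83 on the other 5 and 17.43 to 19.00 in muscle. Hba-a1, a haemoglobin gene, read 16.76 and 17.73 on congenic arrays 1 and 2, where this sum was 16.98 and 17.83. Of these 6 markers, 5 were lowest on wild type array 1, and Pecam1 was highest there (10.59 against 7.97 to 10.35). The part of these markers in the values of the 9 factors was not tested.

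Congenic hypothalamus array 1 held high pituitary hormone values. Gh, growth hormone, read 17.46 there and 7.57 to 8.86 on the other 5, and Prl, prolactin, 14.94 against 8.08 to 9.27. Of 17 listed anterior pituitary markers 12 were measured, and the log2 of their summed intensity was 19.34 on that array, 16.58 to 18.32 on the other 5 and 13.94 to 14.34 in muscle. The markers differed, and 4 of the 12 were highest on wild type array 1. Among these were Tshb (12.92, against 12.35 on congenic array 1) and Pitx1 (11.13 against 11.04). Tbx19 was lowest on congenic array 1 (7.54). The sum of 18.32 was that of wild type array 1, where Chgb, bright on every hypothalamus array (16.22 to 18.11), read 18.11. Isl1 and Six6, which the pituitary expresses as well, read 13.93 and 10.82 on congenic array 1, the highest of the 3 congenic arrays for both, and 0.43 and 0.59 above the median of the other 5. The part of pituitary RNA in these values was not tested. With both array 1 of hypothalamus left out, Isl1, Sim1 and Six6 still passed as higher (Six6 by 1.76, adjusted p = 0.00631), and Otp no longer passed as lower (-1.06, adjusted p = 0.055).

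Of 13 measured markers of midbrain dopamine neurons, which also express Lmx1a, 6 passed as higher in hypothalamus, 2 as lower and 5 did not pass. Of all probes 11% passed as higher and 18.5% as lower. The log2 of the summed intensity of the 13 markers was 15.99 to 17.20 on the hypothalamus arrays and 16.91 to 17.65 on the muscle arrays. The muscle sum mainly follows Aldh1a1, which read 16.43 to 17.39 there, while Slc6a3, Slc18a2 and Ddc read 7.14 to 9.29. The markers moved together in part. Slc6a3, the dopamine transporter, read 13.41 and 13.74 on wild type hypothalamus arrays 2 and 3 and 7.33 to 10.78 on the other 4. Th, Ddc, Drd2, Ret, Nr4a2 and Aldh1a1 were also highest on those arrays, Th at 15.81 and 15.38 against 14.31 to 15.13. Slc18a2, Pitx3, En1, Foxa1, Foxa2 and Lmx1b were not, and Pitx3 read 11.71 and 11.17 against 11.48 to 13.11. The part of these markers in the low Lmx1a values was not tested.

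**Figure D4:**
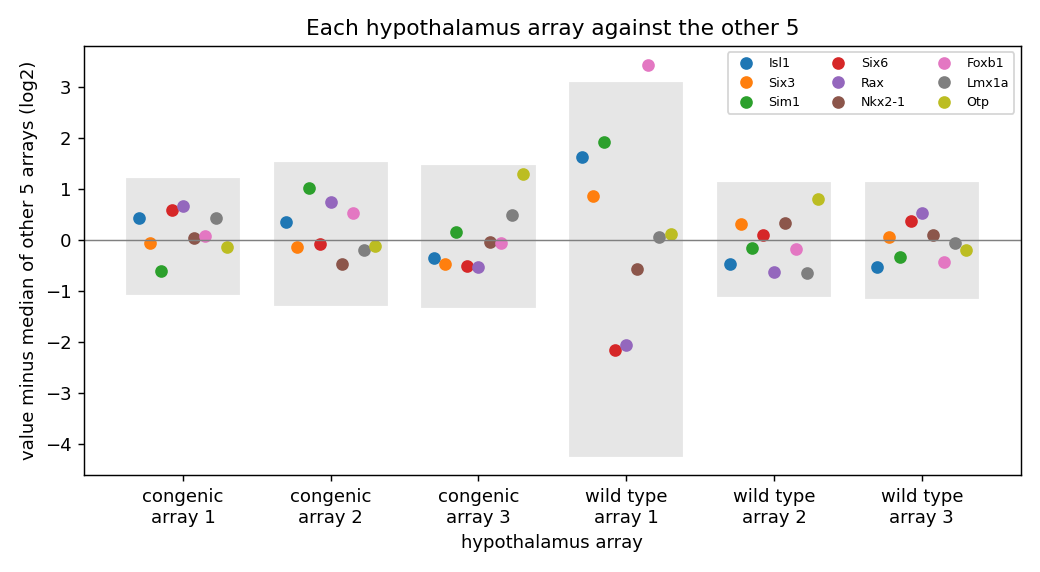
Value on each hypothalamus array minus the median of the other 5 (vertical axis, log2 units) for the 9 genes (coloured points), by array (horizontal axis); the grey bar spans the 5th to the 95th percentile of the same difference over all probes. Wild type array 1 has the widest bar, from -4.23 to 3.07, and Foxb1 at 3.42 lies above it.

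The 9 factors were then compared between the strains, as congenic minus wild type within each tissue. In hypothalamus 0 of 9 passed, and 0% of all probes did. The adjusted p of the members was 0.936 to 0.973 by limma, and 658 of 33012 probes had an unadjusted p under 0.05. The differences were 0.83 ± 0.70 (SE) for Rax, 0.59 ± 0.80 for Six6, 0.43 ± 0.44 for Lmx1a and 0.14 ± 0.54 for Otp, and -0.10 ± 0.47 for Nkx2-1, -0.18 ± 0.68 for Isl1, -0.34 ± 0.78 for Sim1, -0.58 ± 0.59 for Six3 and -0.78 ± 1.00 for Foxb1. In 8 of 9 members the standard error was larger than the difference, and Rax was the exception.

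Without wild type array 1, 0 of 9 again passed, beside 0% of all probes, and 1761 probes had an unadjusted p under 0.05. The differences then lay between -0.35 (Nkx2-1 and Six3) and 0.55 (Lmx1a), with standard errors of 0.27 to 0.60 and adjusted p of 0.90 to 0.995. Those of Isl1 (0.41), Sim1 (0.33), Foxb1 (0.44) and Six6 (-0.18) changed sign when the array was left out. Only Six3 had strains that did not overlap in hypothalamus, with the congenic arrays at 12.03 to 12.44 and the wild type arrays at 12.50 to 13.32. That held for 1 of 9 members and for 9.16% of all probes.

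Six3 is the one member on chromosome 17, where it is gene 635 of 656 measured in chromosome order. Whether it lies in the CAST segment cannot be read from the sources used here. Its strain difference was -0.58 ± 0.59 (SE, adjusted p = 0.936) in hypothalamus, -0.35 ± 0.28 without wild type array 1 (adjusted p = 0.906) and -0.14 ± 0.23 in muscle (adjusted p = 0.913).

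In muscle 0 of 9 members passed the strain test, where 0.0182% of all probes did. Lmx1a had the smallest unadjusted p of the 9, with 8.01 ± 0.35 (SD, n = 3) in the congenics and 9.94 ± 0.49 (SD, n = 3) in wild type. Its strains did not overlap in muscle, as in 1 of 9 members and 11.9% of all probes. The difference was -1.93 ± 0.45 (SE), and did not pass after adjustment over all probes by limma (adjusted p = 0.835). In hypothalamus Lmx1a differed by 0.43, and the contrast of the 2 strain differences, chosen after these values were seen, was 2.36 ± 0.61 (SE; limma, adjusted p = 0.913). No member passed that contrast, in which 0 of 33012 probes passed and 1198 had an unadjusted p under 0.05. Rax, the next by p in muscle, was 8.97 ± 0.69 in the congenics and 10.01 ± 0.94 in wild type (SD, n = 3), a difference of -1.03 ± 0.57 (SE, adjusted p = 0.835).

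**Figure D5:**
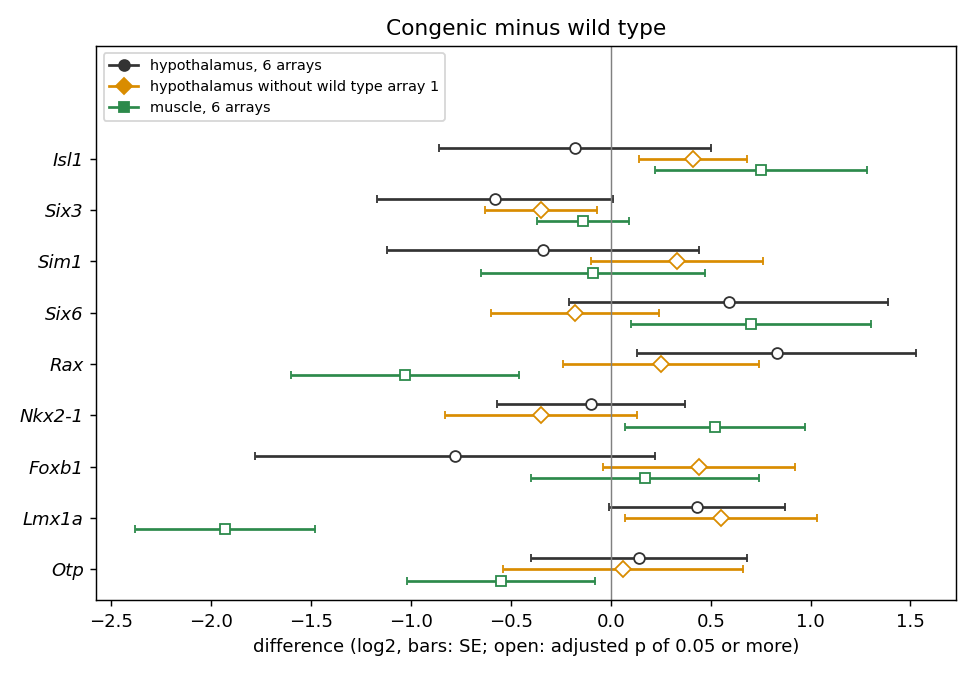
Congenic minus wild type difference in log2 intensity (horizontal axis) of each gene (vertical axis) in hypothalamus (black circles), in hypothalamus without wild type array 1 (orange diamonds) and in muscle (green squares), with bars of 1 standard error; open symbols have an adjusted p of 0.05 or more. All symbols are open, and Lmx1a in muscle, at -1.93, lies farthest from 0.

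The mean over the 9 measured members was 10.02 to 10.42 on the hypothalamus arrays and 8.82 to 9.57 on the muscle arrays. Isl1 (5.91) and Sim1 (3.39) had the largest tissue differences, and the median over the members was 0.16, so the mean mainly follows Isl1 and Sim1. The 5 other genes whose values over the 12 arrays were most like that mean, by Pearson's r, were Pdik1l (0.974), Rgs9 (0.974), Ccdc113 (0.967), Csnk1g3 (0.967) and Rab33a (0.963). Rgs9, a regulator of G protein signalling of striatal neurons and photoreceptors, was 14.30 ± 0.77 in hypothalamus and 9.67 ± 0.73 in muscle (SD, n = 6). All 5 share the arrays and the division into tissues with the members, and r over 12 arrays is given as a description.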

How the data were processed

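Total RNA was labelled as digoxigenin cRNA and read on Applied Biosystems chemiluminescent arrays, per the labels' protocols. The deposited values were taken as log2 intensities. Neither the base nor the software is given in the sources used here. The 6 arrays of a tissue shared 1 distribution, so tissue differences rest on values scaled separately, and joint quantile normalization was an alternative. The number of arrays limits the precision. The series text calls the mice biological replicates.

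Groups came from the sample titles. The description names the congenic strain for every sample and was not used. Of the probes, 14411 had 1 gene symbol, 247 several and 18354 none in the platform annotation, and 14402 were matched to the RefSeq gene table of GRCm38.p6. They covered 13840 genes.

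Values were used without filter or floor. Differences, standard errors and p-values came from two-sided tests in limma 3.58.1 under R 4.3.3, with lmFit and a mean-variance trend in eBayes, adjusted by Benjamini-Hochberg over 33012 probes. The fit was tested on simulated data with independent noise, of 1 spread per probe on all arrays. Those data held no array that stands apart, so that test does not bear on wild type hypothalamus array 1. All 10 members were to be named, with up to 4 genes a list by highest hypothalamus mean (for other brain regions and pituitary also by variation between hypothalamus arrays), defining markers of a tissue, and the 5 genes most like the members' mean. Lhx5, Lhx3, Lhx2, Isl2, the LDB genes and the further dopamine neuron, pituitary, neuropeptide and vessel markers of single arrays were named after their values were seen. The members and lists were chosen with earlier results of these data known. Alternatives were each array left out, joint normalization, a filter and a floor at the 20th percentile, no trend, array weights, a replicate block, 1 fit for all arrays, and both array 1 of hypothalamus left out. Same-number hypothalamus and muscle arrays of a strain had deviations from their group means that correlated at 0.02 to 0.076 over probes. Same-number arrays of the 2 strains within a tissue, which are different mice, gave -0.129 to 0.138. Arrays of unequal number were not compared, so these values cannot decide whether equal numbers mark 1 mouse. The numbers were not taken to pair samples, since the labels state no pairing.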

Additional observations from a re-analysis of the deposited data

Results flagged for a closer look

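Each member was screened in each tissue for an array whose gap to its nearest neighbour, divided by the range of the 6 arrays, exceeded Dixon's critical value. This screen over tissues rather than groups of 3 was chosen after the values were seen. Of 18 sets of 6 arrays, 4 had such an array. Chance gives about 1 in 20, but these arrays gave more over all probes: 25.7% in hypothalamus, 22.3% through wild type array 1, and 13.0% in muscle. The members, at 3 of 9 in hypothalamus and 1 of 9 in muscle, are read against those shares. Wild type hypothalamus array 1 was the array in 3 of the 4. Foxb1 read 11.77 there (gap over range 0.761), Isl1 15.12 (0.659) and Rax 7.64 (0.634, on the low side). The remaining one was Six6 in muscle, where congenic array 2 read 10.25 (0.715). The causes were not tested. For Six6 the tissue difference was 1.87 (adjusted p = 0.012 by limma) without that muscle array, and for Foxb1 it was -0.33 without the hypothalamus array.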

How the results depend on the processing

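Isl1 and Sim1 passed as higher in hypothalamus under every alternative run. When each array was left out, 2 to 3 members passed as higher and 0 to 2 as lower. Of all 33012 probes, 3135 to 5191 passed as higher and 5278 to 8190 as lower in those fits. The lower count of members was 2 with values floored at the 20th percentile (6149 of all probes). It was 2 with array weights (9149 of all probes) and 0 with both array 1 of hypothalamus left out (7899). Six6 missed the threshold with the floor (1.47, adjusted p = 0.0509) and in 9 of the 12 fits without 1 array, Otp in 6 of 12. Lmx1a passed as lower with the floor (-0.81) and with array weights (-0.91). With the 12 arrays quantile-normalized together, the median difference of all probes was 0.01 and 4292 probes passed as higher and 4826 as lower, against 3633 and 6120 as deposited; Isl1 (6.25), Sim1 (3.56), Six6 (1.64) and Otp (-1.07) passed as before. A replicate block, treating equal numbers as 1 mouse, left 3 members higher (Six6 1.51, adjusted p = 0.0355) and 1 lower (Otp -1.21, 0.0374), and changed no call. Of all 33012 probes 3527 then passed as higher and 5927 as lower.

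Signs of differences that did not pass turned as follows; the cause was not tested. For the tissue difference, leaving out each array gave -0.52 to 0.02 for Rax and -0.33 to 0.62 for Foxb1, which was -0.37 with array weights and -0.29 without both array 1. For the strain difference in hypothalamus the ranges were -0.35 to 0.09 for Nkx2-1, -0.72 to 0.33 for Sim1, -0.30 to 0.40 for Otp, -0.18 to 1.04 for Six6, -0.49 to 0.41 for Isl1 and -1.45 to 0.44 for Foxb1. Array weights gave 0.14 for Sim1, -0.28 for Otp, 0.43 for Isl1 and 0.33 for Foxb1, and leaving out both array 1 gave 0.67 for Sim1, -0.45 for Six6, 0.33 for Isl1 and 0.51 for Foxb1. In muscle the ranges were -0.55 to 0.34 for Sim1 (0.11 with array weights), -0.28 to 0.00 for Six3, -0.01 to 1.09 for Six6 and -0.29 to 0.58 for Foxb1. In no alternative did a member pass a strain test. The mean of a gene's probes was not run, since each measured member had 1 probe. Isl1 in muscle has no value under the filter on low values.

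Signal over background is unknown here, so low values of Nkx2-1, Otp, Lmx1a, Foxb1, Rax and Six6 cannot be told from background. Six6 read 8.17 to 10.82 in hypothalamus, within the 7.05 to 11.90 of the neuropeptide and nucleus marker genes on the muscle arrays. The lower Sim1 values in hypothalamus, from 11.31, also fell in that range. With 3 arrays a group, precision is limited by their number. Probe position and isoform coverage were not analysed here.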
